A study of Homo sapiens with 12 samples.

Results

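Trimethylation of histone H3 at lysine 79 (H3K79me3) was compared between the colorectal cancer lines SPH and METS on one side and DLD1 and SA on the other. The members were chosen from the H3K79me3 values themselves. Counts of the H3K79me3 regions that lie whole inside each gene body were summed, gene bodies with 5 or more regions were kept, and a gene body was called parted when both SPH and METS lay at least 1.5-fold above, or both at least 1.5-fold below, both DLD1 and SA. Of 49993 distinct gene bodies in the table used, 12129 held a region and 6525 held 5 or more. Of those 6525, 252 were parted with SPH and METS higher and 10 with SPH and METS lower. Because the pairing of the lines was picked from these values, the H3K79me3 differences below are a description and carry no test.

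The 4 H3K79me3 libraries belong to a series of 12 ChIP-seq libraries, with 1 library per line for each of H3K79me3, H3K4me3 and H3K27me3. SPH is labelled a mesenchymal derivative of DLD1 taken from colonospheres, METS an epithelial derivative from a lung metastasis of a xenograft, DLD1 the epithelial parental line, and SA a mesenchymal derivative from soft agar colonies. All 4 grew in the same serum-containing McCoy's 5A medium, and chromatin was precipitated with a Diagenode iDeal kit. SPH and METS therefore differ in their labelled state, as do DLD1 and SA, and the comparison runs across the labels mesenchymal and epithelial. Each line is a single library and all derive from 1 origin, so no spread within a line can be given.

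DOT1L is the enzyme that methylates H3K79. The mark lies over transcribed genes, strongest in the part just past the transcription start, and is tied to the passage of RNA polymerase II into elongation. H3K4me3 marks the starts of active genes, and H3K27me3, written by the Polycomb repressive complex PRC2, covers silent genes. The files give positions on build hg19 and no gene names, strands or exons, so each gene body is named by its position as the files write it. The labelled epithelial or mesenchymal state was not checked against marker genes for the same reason.

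The H3K79me3 totals were 6165169 reads in SPH, 6432882 in METS, 7521451 in DLD1 and 7273964 in SA, so both lines of the first side were the shallower ones. Values are CPM, the count divided by that total and scaled to 1000000. The strongest 10% of regions took 45.3% of the reads in SPH, 39.6% in METS, 41.8% in DLD1 and 42.2% in SA, and the weakest 10% took 0.499%, 1.21%, 0.594% and 0.566% in the same lines. The 18 mitochondrial regions had 163 CPM in SPH, 176 in METS, 243 in DLD1 and 417 in SA. In the H3K4me3 libraries the mitochondrial values ran the other way, with 312 CPM in SPH, 236 in METS, 124 in DLD1 and 154 in SA. After thinning all 4 libraries to the smallest total, 254 gene bodies were parted with SPH and METS higher and 9 lower. With other scalings the counts were 248 and 17 by TMM factors, 246 and 17 by DESeq2 size factors and 262 and 15 after quantile normalization. The part of the mitochondrial reads in the parting was not tested.

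The parting was lopsided. Gene bodies higher in SPH and METS made up 3.86% of the 6525 and those lower 0.153%, while without the 1.5-fold gap 1732 (26.5%) were higher and 1499 (23.0%) were lower in both SPH and METS than in both DLD1 and SA. Between the labelled states, 6 gene bodies (0.0920%) were higher and 54 (0.828%) lower in SA and SPH than in METS and DLD1 by the same gap. Neither pairing was tested. The rule needs all 4 lines, so leaving out a line widens both lists: the higher list had 659 members without SPH, 433 without METS, 550 without DLD1 and 300 without SA, and the lower list had 153, 204, 46 and 44.

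The 252 gene bodies higher in SPH and METS fell into 234 loci, since some overlap and share regions, and held 2988 distinct regions. Their pooled fold, the summed counts of SPH and METS over those of DLD1 and SA after scaling by totals, had a median of 1.95 and ran from 1.56 to 19.4. Of the 252, 249 had at least 100 counts over the 4 lines. Of 3140 region values in these gene bodies, 2989 (95.2%) pointed the same way as the gene, which choosing the members on the sum of these regions largely fixes. In 177 of the 252 every region did, while in chr16:16404198-16428047 1 of 13 did. SPH was above METS in 134 and METS above SPH in 118. DLD1 was above SA in 187 and SA above DLD1 in 65.

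The widest gap was on chromosome 2. The gene body chr2:198669426-199437305, of 768 kb with 33 regions, had 47.0 CPM in SPH, 147 in METS, 4.39 in DLD1 and 6.32 in SA, from 290, 943, 33 and 46 counts. METS stood far above SPH here, and both stood above DLD1 and SA. The pooled fold was 18.3 (95% interval 14.6 to 23.3, exact Clopper-Pearson, counting error only, like all intervals here). Nearly all of these counts lay in the smaller gene body chr2:199164087-199239821 inside it, which had 31 of the 33 regions and 46.7, 145, 4.39 and 5.64 CPM in SPH, METS, DLD1 and SA. H3K4me3 over the large gene body was 23.2 CPM in SPH, 25.7 in METS, 16.5 in DLD1 and 23.1 in SA, so SPH and SA were level there. The inner gene body held 1 H3K4me3 region, with 10 counts in SPH and 18 in METS and 0 counts in both DLD1 and SA. H3K4me3 thus parted the lines the same way over the inner gene body, at low counts, and was not called by the test of H3K4me3 described at the end.

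The other named members were smaller, and most were short. The gene body chr11:289135-296107, of 6.97 kb, had 50.6 CPM in SPH, 58.1 in METS, 16.5 in DLD1 and 16.8 in SA, a fold of 3.27 (2.83 to 3.80). On the same chromosome chr11:66615704-66725847 had 34.9, 34.5, 11.4 and 12.5 CPM in SPH, METS, DLD1 and SA and lay 66.6 Mb from the outermost gene body, away from the chromosome's ends. In both, SPH and METS were close to each other and far from the other pair. The gene body chr5:1050499-1112150, of 61.6 kb with 21 regions, had 183 CPM in SPH, 206 in METS, 70.9 in DLD1 and 62.6 in SA, a fold of 2.92 (2.71 to 3.15). The gene body chr9:137208944-137332431, of 123 kb, carried 70 regions and 362, 393, 151 and 146 CPM in SPH, METS, DLD1 and SA, so its fold of 2.55 had a narrow interval of 2.42 to 2.68. The strongest signal among the named members was at chr16:577717-604636, with 574 CPM in SPH, 506 in METS, 310 in DLD1 and 260 in SA, a fold of 1.89 (1.82 to 1.96). Its own gap was only 1.63-fold. It stands in for chr16:597185-603847 inside it, which had a gap of 2.44-fold over 5 regions and 14.9, 19.3, 6.12 and 4.81 CPM in SPH, METS, DLD1 and SA.

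In 2 further named members SPH and METS stood well apart from each other. The gene body chr7:2552163-2568811 had 11.2 CPM in SPH, 19.4 in METS, 3.59 in DLD1 and 4.12 in SA, and chr9:140342022-140353786 had 39.7, 69.0, 16.9 and 18.0 CPM in these lines. The remaining 7 were chr2:241825465-241836306, chr16:89985573-90002500, chr19:1228286-1238026, chr1:1260136-1264277, chr8:145577795-145584932, chr8:144648357-144655141 and chr4:980785-998316. Their folds lay between 2.52 and 2.91, and each had its lower value of SPH and METS above its higher value of DLD1 and SA by the rule. At the edge of the rule, chr15:90703836-90772911 was just inside, with 123 counts in SPH, 133 in METS, 100 in DLD1 and 78 in SA. The gene body chr17:21187984-21218552 was just outside, with 407, 445, 272 and 219 CPM in these lines.

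**Figure D1:**
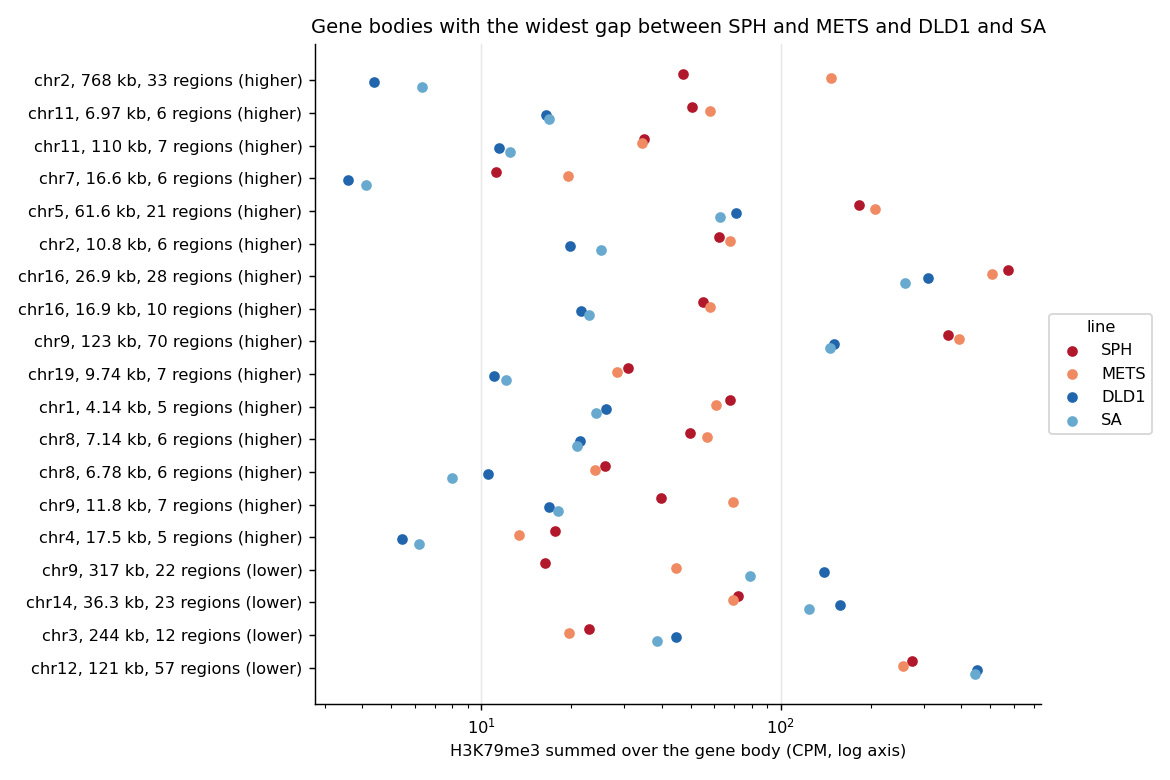
H3K79me3 summed over each named gene body (CPM, log axis) in SPH, METS, DLD1 and SA, 1 point per library, with chromosome, length and number of regions on the vertical axis. In the upper 15 gene bodies SPH and METS lie to the right of DLD1 and SA, in the lower 4 to the left, and the topmost, of 768 kb on chromosome 2, has 47.0 and 147 CPM in SPH and METS against 4.39 and 6.32 CPM in DLD1 and SA.

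Gene bodies lower in SPH and METS were few, and 5 of them rested on few reads. The 10 gene bodies formed 8 loci, and these 5 had between 3 and 57 counts over all lines, with at most 7 counts in SPH or METS. One of these, chr2:110550335-110615272, had 0 counts in both SPH and METS against 1 in DLD1 and 2 in SA, which is too few for a fold. The widest gap among the 5 with at least 100 counts was at chr9:14081842-14398982, of 317 kb with 22 regions, which had 16.4 CPM in SPH, 44.8 in METS, 140 in DLD1 and 79.2 in SA. SPH was lowest and DLD1 highest there, and the fold was 0.281 (0.251 to 0.314). At the same gene body H3K4me3 was also lowest in SPH and METS, with 103 CPM in SPH, 157 in METS, 205 in DLD1 and 166 in SA. H3K27me3 was highest in them, with 318 CPM in SPH, 190 in METS, 153 in DLD1 and 169 in SA.

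The gene body chr14:51098776-51135049 had 72.0 CPM in SPH, 69.2 in METS, 158 in DLD1 and 124 in SA, and the interval of its fold was 0.461 to 0.541. The gene body chr3:111451344-111695364 had 22.9, 19.6, 44.5 and 38.6 CPM in SPH, METS, DLD1 and SA, a fold of 0.509 (0.439 to 0.589), and it overlaps the member just inside the rule, chr3:111393523-111565294. The gene body chr12:89981828-90103077 had the most reads of the list, with 275 CPM in SPH, 256 in METS, 452 in DLD1 and 444 in SA over 57 regions, a fold of 0.592 (0.567 to 0.617). In each of these the groups did not overlap, as the rule demands. The gene body chr1:197473878-197744826 fell just outside the rule, with 14.9, 14.5, 22.3 and 27.4 CPM in these lines. The lower members had a median length of 93.5 kb, against 45.3 kb over all kept gene bodies. None lay within 5 Mb of the outermost gene body of its chromosome, where only 13.0% of all kept gene bodies lay. With 10 gene bodies in 8 loci, the list is too small to read a trait from either value.

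Higher members were short. Their median length was 18.5 kb (quartiles 10.6 and 35.6 kb), against 45.3 kb over all 6525. Of the gene bodies under 10 kb, 57 of 532 (10.7%) were higher members, of those of 10 to 30 kb 120 of 1757 (6.83%), of those of 30 to 100 kb 59 of 2671 (2.21%), of those of 100 to 300 kb 14 of 1327 (1.06%), and of those of 300 kb or more 2 of 238 (0.840%). The whole distribution shifted with length, members or not. The median log2 ratio of SPH and METS over DLD1 and SA was 0.19 under 10 kb (quartiles -0.08 and 0.57), 0.08 at 10 to 30 kb, -0.03 at 30 to 100 kb, -0.06 at 100 to 300 kb (quartiles -0.21 and 0.16) and -0.03 above that. The quartiles overlap widely between classes.

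The length trend was mainly that of SPH. Set against SA, the median log2 ratio of SPH was 0.24 under 10 kb and -0.21 at 100 to 300 kb, that of METS 0.21 and 0.06, and that of DLD1 0.07 and -0.02. The difference between gene bodies under 10 kb and those of 100 to 300 kb was 0.253 with all 4 lines, 0.105 without SPH, 0.392 without METS, 0.313 without DLD1 and 0.192 without SA. It kept its direction in each, but its size rested on SPH. Short gene bodies, under 30 kb, had a higher median ratio than longer ones on 15 of 19 chromosomes, the exceptions being chromosomes 4, 13, 15 and 18.

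Higher members lay in gene-dense sequence and near chromosome ends. The median number of gene bodies within the 1 Mb around a higher member was 50, against 29 over all kept gene bodies, and 187 of the 252 (74.2%) had another member locus within 1 Mb. With 15 or fewer gene bodies per Mb the median log2 ratio was -0.13 and 3 of 817 were higher members. It was -0.05 at 16 to 30, 0.03 at 31 to 45, 0.14 at 46 to 60 and 0.31 above 60, where 96 of 532 (18.0%) were higher members. Within the densest class the medians were 0.37 under 10 kb, 0.37 at 10 to 30 kb, 0.16 at 30 to 100 kb and 0.22 at 100 to 300 kb. Within the sparsest class they were -0.03, -0.14, -0.11 and -0.15 in the same order. Length and density went together, with a median length of 17.8 kb in the densest class and 84.9 kb in the sparsest. Most higher members of the densest class lay near chromosome ends. Under 2 Mb from the outermost gene body they were 75 of 158 (47.5%), with a median of 0.81. At 20 Mb or more from it they were 10 of 229 (4.37%), with a median of 0.09, against 3 of 594 (0.505%) and -0.15 in the sparsest class.

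Of the 252 higher members, 153 (60.7%) lay within 5 Mb of the outermost gene body of their chromosome, against 846 of 6525 (13.0%) kept gene bodies. Under 2 Mb from that point the median log2 ratio was 0.53 (quartiles 0.17 and 0.89) and 119 of 455 (26.2%) were higher members. It was 0.31 at 2 to 5 Mb, 0.06 at 5 to 10 Mb, 0.02 at 10 to 20 Mb and -0.05 farther in, where 57 of 4240 (1.34%) were higher members. Here SPH and METS moved alike: against SA the medians under 2 Mb were 0.59 in SPH, 0.61 in METS and 0.10 in DLD1. Short gene bodies near the ends stood out most, with a median of 0.92 and 32 higher members among 59 (54.2%) under 10 kb and under 2 Mb from the end. The 99 higher members farther than 5 Mb in were 1.74% of the 5679 gene bodies there, and with a median length of 21.3 kb against 47.4 kb they too were short.

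**Figure D2:**
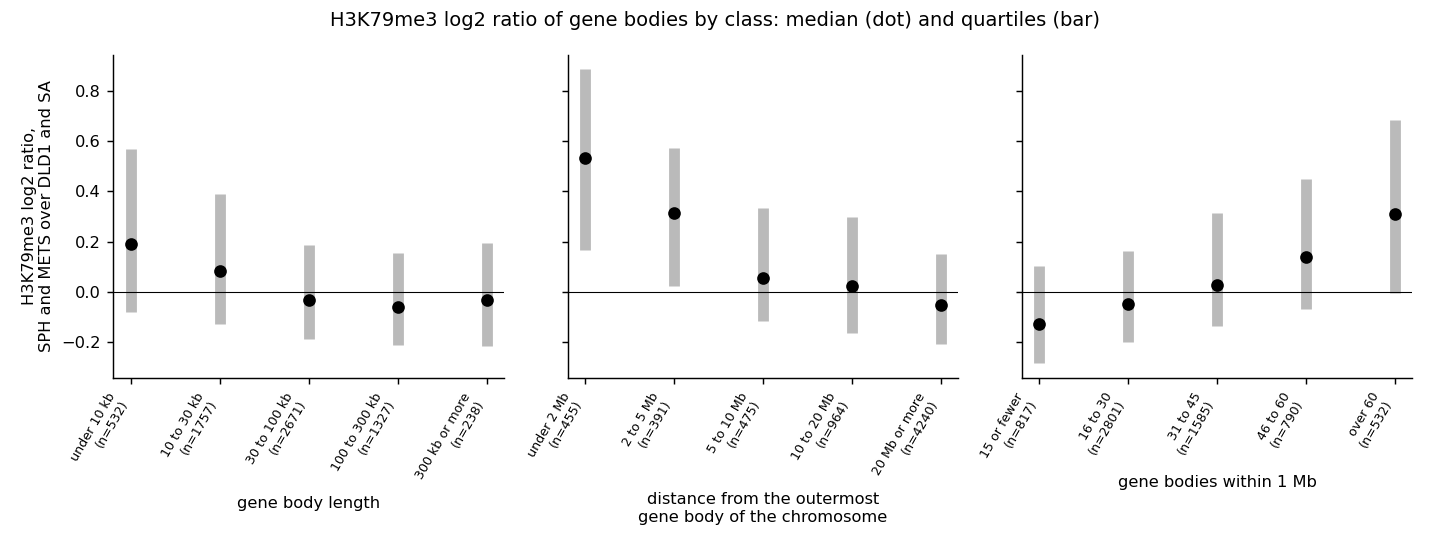
Log2 ratio of H3K79me3 in SPH and METS over DLD1 and SA for the 6525 gene bodies, by length, by distance from the outermost gene body of the chromosome and by the number of gene bodies within 1 Mb, with dots for medians and bars from the first to the third quartile. The medians run from 0.19 to -0.06 with length, from 0.53 to -0.05 with distance and from -0.13 to 0.31 with density.

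**Figure D3:**
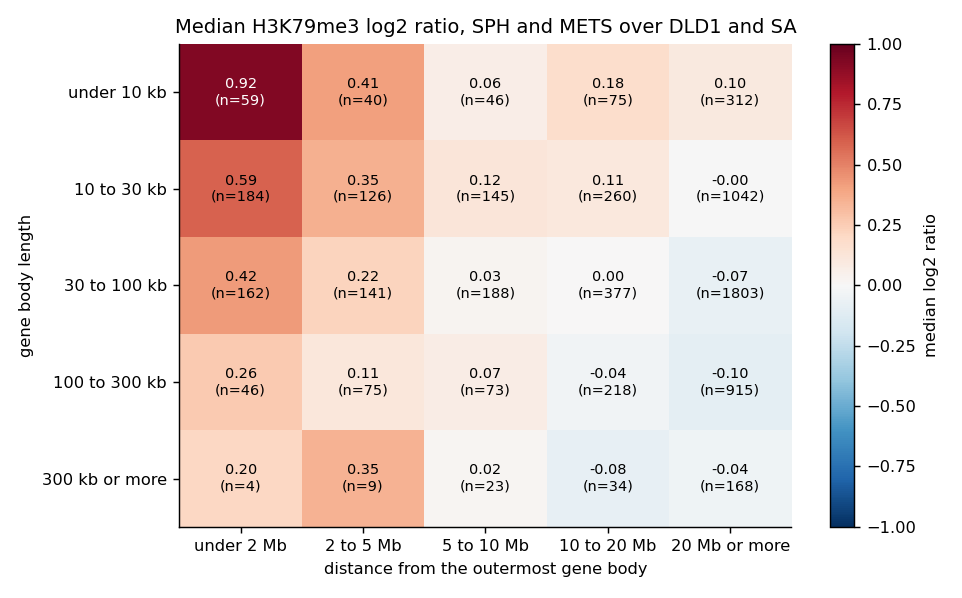
Median log2 ratio of H3K79me3 in SPH and METS over DLD1 and SA for gene bodies classed both by length and by distance from the outermost gene body, with the number of gene bodies in each cell. The highest cell, 0.92, is that of gene bodies under 10 kb and under 2 Mb from the end, and in gene bodies of 10 to 30 kb the median is 0.59 under 2 Mb.

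The ends were not alike. Of 37 chromosome sides, leaving out the far side of chromosome 19, where the table stops at 33.8 Mb, 29 had a median log2 ratio above 0 and 21 held a higher member. The 5 fullest sides held 89 of the 252. The high-coordinate side of chromosome 8 had 20 higher members among 39 gene bodies (51.3%) and a median log2 ratio of 0.80, and that of chromosome 9 had 18 of 43 (41.9%) and 0.67. The low-coordinate side of chromosome 19 had 24 of 67 (35.8%) and 0.72, and that of chromosome 16 had 16 of 71 (22.5%) and 0.48. The high-coordinate side of chromosome 3 had none among 25 gene bodies, with a median of -0.11, and its low-coordinate side held only 1 kept gene body. The low-coordinate sides of chromosomes 13 and 14, where the outermost gene body is about 19 Mb from the chromosome's first base, also had none, among 15 and 21 gene bodies with medians of -0.07 and -0.02. That of chromosome 15, with its outermost gene body about 20 Mb in, had none among 7 gene bodies, but its median was 0.17. Regions outside gene bodies had a higher ratio near the ends as well: those that overlap no gene body had a pooled log2 ratio of 0.21 under 5 Mb from the outermost gene body and -0.35 farther in.

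Only chromosomes 1 to 19 could be ranked, and chromosome 19 only up to 33.8 Mb, where the gene bodies stop. By chromosome, the median log2 ratio was highest on chromosome 19 at 0.40, where 34 of 225 gene bodies (15.1%) were higher members, and on chromosome 16 at 0.21, with 32 of 331 (9.67%). Chromosomes 11, 17 and 9 followed at 0.08, 0.08 and 0.06. It was lowest on chromosome 4 at -0.10, and chromosomes 13, 6 and 18 had 0, 1 and 1 higher members. The quartiles of chromosome 19 were 0.13 and 0.65, those of chromosome 16 were -0.00 and 0.52 and those of chromosome 4 were -0.27 and 0.09, so single gene bodies overlapped between them. Against SA the medians on chromosome 19 were 0.50 in SPH, 0.43 in METS and 0.12 in DLD1. On chromosome 4 they were -0.28 in SPH, -0.01 in METS and -0.05 in DLD1.

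Chromosomes rich in gene bodies and in short ones tended to rank highest. Richness alone did not go with a high rank. Chromosomes 14 and 15 had 25.4 and 25.2 gene bodies per Mb, close to 26.0 on chromosome 16, but median ratios of -0.04 and -0.07. Their gene bodies were longer, with medians of 45.4 and 57.9 kb against 35.7 kb on chromosome 16. Over the 19 chromosomes the median ratio correlated with gene bodies per Mb (Pearson r = 0.77, Spearman rho = 0.65), with their median length (r = -0.80, rho = -0.92) and, over 18 chromosomes, with the median GC content of RefSeq GRCh38.p14 promoters (r = 0.75, rho = 0.74). These are descriptions: chromosomes share the same 4 libraries, and length, density and base composition go together. The promoter value of chromosome 19 came from 1917 promoters, while its gene bodies reach only 33.8 Mb. The part of base composition in the parting was not tested, since no genome of the files' build was used here. The H3K4me3 medians of the same gene bodies and pairing stayed between -0.05 and 0.01 on every chromosome. Those of H3K27me3 were -0.08 on chromosome 19 and between 0.05 and 0.12 on the others.

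**Figure D4:**
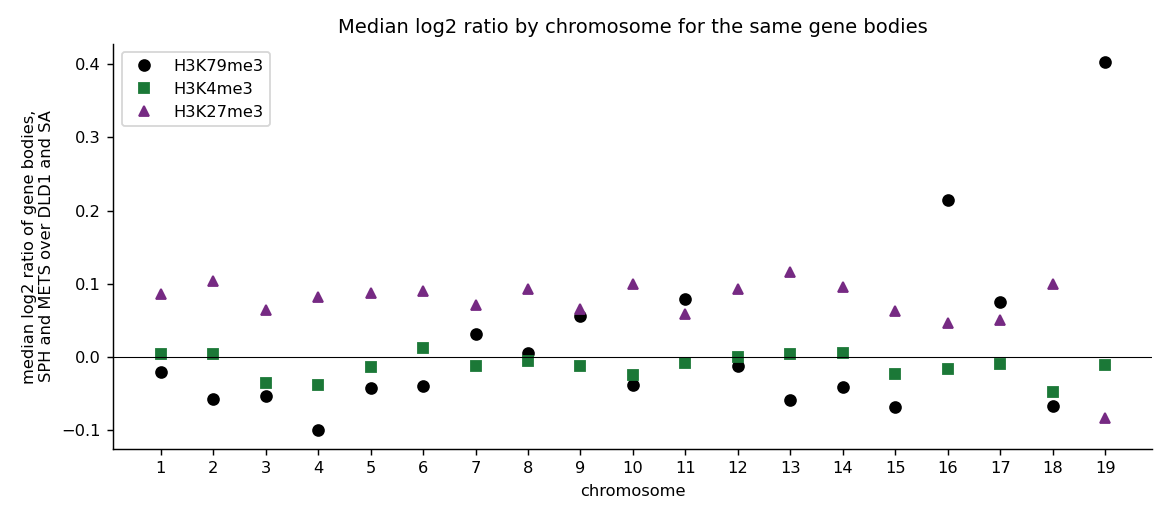
Median log2 ratio of SPH and METS over DLD1 and SA per chromosome for H3K79me3, H3K4me3 and H3K27me3 over the same gene bodies, 1 point per chromosome and mark. H3K79me3 reaches 0.40 on chromosome 19 and 0.21 on chromosome 16, where H3K4me3 stays near 0 and H3K27me3 is at -0.08 and 0.05.

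Within gene bodies the pairing was sharpest in the first kilobase. Since strands are not in the files, the start was taken as the end of the gene body with more H3K4me3 within 2 kb, which could be set for 5899 of the 6525 (90.4%). In the first 0.5 kb past that end the mean level per region was 12.7 CPM in SPH, 12.8 in METS, 8.97 in DLD1 and 7.48 in SA, a log2 ratio of 0.63. It was 0.43 at 0.5 to 1 kb and 0.02 at 1 to 1.5 kb, and at 3 to 3.5 kb it was -0.11. In the 0.5 kb before the end it was 0.34. The level peaked at 0.5 to 1 kb in SPH and METS, at 14.9 and 14.5 CPM per region, and at 1.5 to 2 kb in DLD1 and SA, at 12.8 and 13.5. H3K4me3 in the same first windows gave log2 ratios of -0.02 and -0.01 past the end and 0.02 before it.

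The same held gene by gene. In 4208 gene bodies with at least 40 counts both in the first 1 kb and at 1 to 5 kb, the median log2 ratio was 0.54 in the first 1 kb and -0.13 at 1 to 5 kb. The median difference was 0.56 (quartiles 0.17 and 0.97), and the first 1 kb was above the next 4 kb in 3531 (83.9%). The windows of 1 kb and 4 kb were chosen after the profile had been seen. With the rule for members applied to the first 1 kb alone, 907 of the 4208 (21.6%) were higher in SPH and METS, against 141 (3.35%) for 1 to 5 kb. The first 1 kb was above the next on each of the 19 chromosomes, with median differences from 0.30 on chromosome 19 to 0.77 on chromosome 4.

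In contrast to the level over whole gene bodies, the first 1 kb varied little with length. Its median log2 ratio was 0.55 in gene bodies under 10 kb, 0.51 at 10 to 30 kb, 0.53 at 30 to 100 kb, 0.59 at 100 to 300 kb and 0.61 above. At 1 to 5 kb the medians were 0.07, -0.06, -0.16, -0.22 and -0.17 in the same order. Both windows were higher near chromosome ends, with 0.80 and 0.26 under 5 Mb from the outermost gene body against 0.50 and -0.16 farther in.

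The difference between the windows was smaller in the higher members, which the rule in part fixes, since it picks a high sum over the whole gene body. In the 167 that could be split, the median was 1.06 in the first 1 kb and 0.89 at 1 to 5 kb, a median difference of 0.13, with the first 1 kb above in 106 (63.5%). Among gene bodies that were not parted the median difference was 0.58 in 4040. With each gene body cut into 10 equal parts from its start, the pooled log2 ratio of the higher members was 0.92, 0.93 and 0.92 in parts 1, 2 and 3 and 1.04 and 1.14 in parts 9 and 10. Over all kept gene bodies the 10 parts ran between -0.06 and 0.07. Gene by gene, the side of the middle far from the start had the higher ratio where both sides had at least 40 counts. Its median was 1.16 against 0.97 on the near side in 155 higher members, with the near side above in 41 (26.5%), and 0.15 against -0.01 in all 3303 such gene bodies, with the near side above in 34.0%.

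**Figure D5:**
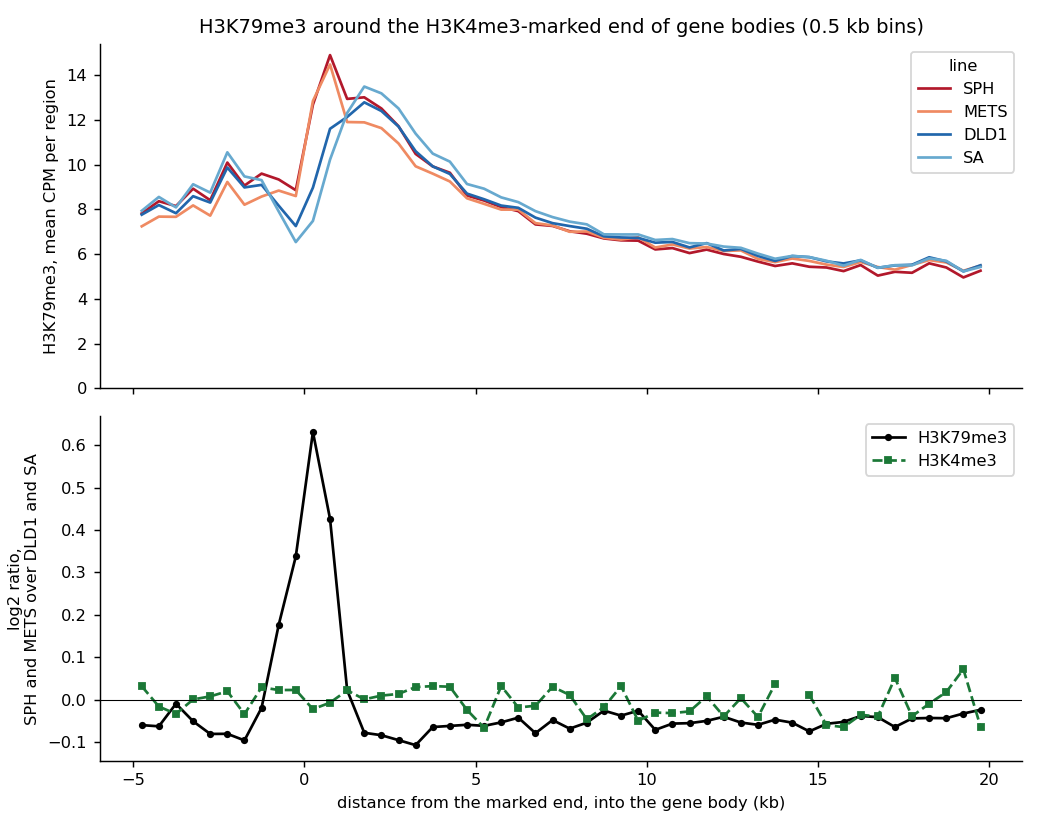
Upper panel, mean H3K79me3 level per region (CPM) in SPH, METS, DLD1 and SA in 0.5 kb windows around the H3K4me3-marked end of 5899 gene bodies, and lower panel, the log2 ratio of SPH and METS over DLD1 and SA for H3K79me3 and H3K4me3 in the same windows. H3K79me3 peaks at 0.63 in the first 0.5 kb and is at -0.11 at 3 to 3.5 kb, while H3K4me3 is at -0.02 in the first 0.5 kb.

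The other 2 marks are independent of the rule and could be tested over the lines, each line as 1 replicate of its side. edgeR's quasi-likelihood test with Benjamini-Hochberg adjustment over all gene bodies called none at an adjusted p under 0.05, neither for H3K4me3 (0 of 16687 in each direction, 0%) nor for H3K27me3 (0 of 48368, 0%). At an unadjusted p under 0.05 it gave 77 higher (0.461%) and 58 lower (0.348%) for H3K4me3 and 720 higher (1.49%) and 948 lower (1.96%) for H3K27me3, while DESeq2 called 1 gene body higher for H3K4me3 and 9 higher and 7 lower for H3K27me3. These p-values measure the spread between 4 lines of 1 origin, 2 a side. The counts depended on METS and SPH: without METS, which leaves SPH as a lone sample assumed to vary like the other side, 1573 gene bodies were called higher and 1671 lower, and without SPH 73 and 18. For H3K27me3 the counts were 32 higher and 62 lower without METS and 80 and 77 without SPH.

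Among the higher members H3K4me3 had a median ratio close to 0, and none of the 247 tested was called by edgeR, with a smallest adjusted p of 0.9999, and 2 were higher and 1 lower at an unadjusted p under 0.05. Their median log2 ratio was -0.04, with 69 of 246 (28.0%) above 0, against -0.01 over all kept gene bodies, with 2909 of 6357 (45.8%) above 0. H3K27me3 leaned to the lower side. It was lower in SPH and METS in 214 of 252 (84.9%), with a median log2 ratio of -0.24, against 2206 of 6520 kept gene bodies (33.8%) with a median of 0.08. None passed edgeR's adjusted threshold, with a smallest adjusted p of 0.990, and 25 of 252 (9.92%) were lower and 2 higher at an unadjusted p under 0.05. The ratios of short members can rest on very low levels. At chr1:1260136-1264277 H3K27me3 was 1.32 CPM in SPH, 0.296 in METS, 0.577 in DLD1 and 1.16 in SA. At the longer chr9:137208944-137332431 it was 25.4, 29.7, 39.6 and 35.7 CPM in these lines. By their medians, short gene bodies near the ends, members included, also leaned to lower H3K27me3. Under 5 Mb from the outermost gene body the H3K27me3 median was -0.24 in the 99 under 10 kb, of which 35 were higher members. It was -0.13 in the 310 of 10 to 30 kb, of which 75 were higher members, and -0.02 in the 303 of 30 to 100 kb there. These classes are thus no background separate from the members.

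The named member with the largest H3K27me3 difference was chr19:1228286-1238026, with an edgeR log2 ratio of -1.16 (unadjusted p = 0.0204, adjusted p = 0.990). Its levels were low, with 1.03 CPM in SPH, 1.48 in METS, 3.78 in DLD1 and 1.91 in SA. DLD1 stood apart there, and SA was nearer to METS than to DLD1. At chr7:2552163-2568811 H3K27me3 was 4.31 CPM in SPH, 3.70 in METS, 8.33 in DLD1 and 6.62 in SA, an edgeR log2 ratio of -0.90 (unadjusted p = 0.0052, adjusted p = 0.990). The values of SPH and METS lay below those of DLD1 and SA there, at levels of a few CPM. The lower members leaned the other way, with an H3K27me3 median of 0.32 against 0.08 over all kept gene bodies. H3K27me3 was lower in 2 of 9 (22.2%), against 33.8% of kept gene bodies. H3K4me3 was lower in 9 of 9 with a median of -0.16, while 45.8% of kept gene bodies were above 0. The lower list has only 10 gene bodies in 8 loci, 5 of them picked on 3 to 57 H3K79me3 counts. At chr9:14081842-14398982 the edgeR log2 ratio was -0.51 for H3K4me3 (unadjusted p = 0.0391, adjusted p = 1) and 0.66 for H3K27me3 (unadjusted p = 0.0409, adjusted p = 0.990).

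H3K27me3 followed the same classes as H3K79me3, with the opposite sign. Its median log2 ratio was -0.09 in gene bodies under 10 kb and 0.11 at 100 to 300 kb, -0.10 under 2 Mb from the outermost gene body and 0.10 at 20 Mb or more, and -0.08 in the densest class and 0.11 in the sparsest. H3K4me3 medians by length stayed between -0.02 and -0.00. The H3K79me3 ratio had a Spearman rho of -0.37 with that of H3K27me3 over 6508 gene bodies and of -0.12 with that of H3K4me3 over 6355, as a description across genes of the same libraries.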

How the data were processed

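The authors deposited read counts per region, 1 file for each library of a mark, as judged from whole-number values whose totals differ between lines. Titles give the word parental to all 4 lines, so lines were told apart by the other labels. The build was hg19, per the submitters' processing notes. The aligner, region caller, region sets and any input control are not given in the sources used here. The H3K27me3 table holds 50000 gene bodies on chromosomes 1 to 19, and its last line states that 7773 further rows were skipped.

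H3K79me3 counts of regions lying whole in a gene body were summed with pandas 2.3.3 and scaled by library totals. Members and lists were chosen with earlier results of these data known. Named gene bodies are up to 15 with the widest gap in each direction and at least 100 counts, plus those nearest the 1.5-fold edge. Of those sharing most of their regions, the one with more regions took the place, even where its own gap was narrower. The lists of genes and cell type markers drawn up for these lines could not be applied, because no gene names on hg19 were at hand. The chromosome 19 rows stop at 33.8 Mb, so only its low-coordinate side counts as a chromosome end.

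H3K4me3 counts within 1 kb of a gene body and H3K27me3 counts were tested with edgeR 4.0.16, with DESeq2 1.42.0 as an alternative. The parting rule and edgeR were run on simulated data with planted changes, and the shares found are not reported here. Promoter GC came from RefSeq GRCh38.p14 promoters of 250 bases before to 50 after the start, per chromosome. Alternatives covered scaling, thinning, gap, number of regions, overlap, an added 1 CPM, low levels and leaving out each line. PCR copies could not be marked here, since only counts per region were used. Intervals cover counting error only, because each line has 1 library per mark.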

Additional observations from a re-analysis of the deposited data

How the results depend on the processing

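With 252 higher and 10 lower members in the main setting, a gap of 1.3-fold gave 563 and 84, and one of 2-fold 31 and 3. Requiring 3 or more regions gave 400 higher and 14 lower, 10 or more regions 109 and 4, and leaving out gene bodies below the median level 104 and 3. These 3 settings keep other numbers of gene bodies than 6525, so their counts cannot be set directly against 252 and 10. In the main setting higher members were 6.06% of gene bodies with 5 to 9 regions and 3.63% with 10 to 19. They were 2.26% with 20 to 39 and 0.836% with 40 or more. The lower count was 17 with TMM factors, 17 with DESeq2 size factors and 6 with 1 CPM added. Without each line in turn the higher count ran from 300 to 659 and the lower from 44 to 204, since a rule on fewer lines is easier to meet. Of the 19 named members, 18 passed the 1.5-fold gap in each alternative, other than another gap, that kept them. Part of this was fixed in advance, since the members were picked on this gap. Leaving out a line can only keep or widen it, and another number of regions or level filter leaves the value of a kept gene body unchanged. Only the other alternatives, such as those of scaling, could narrow it. Named members drop out, and so have no value, with 10 or more regions (10 members), regions in 1 gene body only (6) and low levels left out (13). The member chr12:89981828-90103077 missed the gap with DESeq2 size factors (log2 gap 0.584).

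The difference between gene bodies under 10 kb and those of 100 to 300 kb, 0.253, was 0.286 after quantile normalization, 0.275 with regions in 1 gene body only and 0.105 to 0.392 without a line. The difference between the first 2 kb and 2 to 5 kb, 0.292, was 0.304 with regions in 1 gene body only and 0.222 to 0.365 without a line. Chromosome 19 minus all gene bodies, 0.403, was 0.430, 0.439 and 0.299 to 0.487 in the same order as for length. The cause was not tested for any of these.

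For H3K4me3, DESeq2 called 1 higher, and without a line edgeR called 0 to 1573 higher and 0 to 1671 lower. For H3K27me3, DESeq2 called 9 higher and 7 lower, edgeR 2 lower without gene bodies of low counts, and 0 to 80 higher and 0 to 77 lower without a line. No paired analysis was possible because each line has 1 library per mark and the labels give no shared replicate numbers.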

Other observations

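The H3K79me3 ratio of SPH and METS over DLD1 and SA also varied with the number of regions in a gene body. Its median log2 value was 0.11 in the 2361 gene bodies with 5 to 9 regions, 0.00 in the 1955 with 10 to 19, -0.07 in the 1372 with 20 to 39 and -0.11 in the 837 with 40 or more. Set against SA, both SPH and METS had lower medians in gene bodies with more regions, with 0.03 and 0.23 at 5 to 9 regions and -0.19 and -0.06 at 40 or more. DLD1 against SA had medians of 0.04 and -0.03 in the same classes. The number of regions goes with the length of a gene body, whose median was 23.7 kb in the first class and 123 kb in the last.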
